A study of Mus musculus with 6 samples.

Results

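Cadherins and catenins were followed in cultured Schwann cells (SCs) with and without Plexin-B1. The group held 10 genes, given by name in a rule that uses no measured value, of 55401 genes in the count table. It comprised 6 cadherins (Cdh1, Cdh2, Cdh11, Cdh13, Cdh19, and Cdh20) and 4 catenins (Ctnna1, Ctnna2, Ctnnb1, and Ctnnd1). Members were found by Ensembl identifier with the version dropped, through the GENCODE symbols of mouse build GRCm38. All 10 had enough counts to be tested.

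The samples were 6 bulk RNA-seq libraries of primary SCs grown from the dorsal root ganglia of adult mice, 3 labelled WT and 3 from Plxnb1-/- mice. The Plxnb1 mutation is a constitutive insertion of a transmembrane-lacZ-neo trap cassette, so it was present in all cells of the mouse and not in SCs alone, and the lines were kept on a C57BL/6 background. The labels call every control WT, whereas the study's methods state that heterozygous littermates also served as controls in its experiments. All cultures received forskolin at 2 µM and neuregulin at 10 nM, were depleted of fibroblasts with an antibody to Thy1, and were used at passages 3 to 5 with a stated purity above 80%. The sources used here do not say whether the 3 libraries of a genotype came from separate mice, so p-values measure the spread between these libraries, which may be technical.

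Cadherins are transmembrane proteins whose outer repeats bind calcium and join like cadherins on the next cell. Inside the cell, the tail of a classical cadherin binds p120-catenin and β-catenin, and α-catenin links β-catenin to actin. β-catenin that is not held at the membrane is degraded, or enters the nucleus as the co-activator of Wnt target genes. In peripheral glia, N-cadherin takes part in contacts of SCs with one another and with axons, E-cadherin builds the junctions that a myelinating SC makes with itself, and Cdh19 marks the SC lineage. Only RNA was measured here, so nothing in these values speaks of protein amount or of its place in the cell.

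Library totals ran from 59252048 to 77280964 counts, which puts 3 reads at 0.0383 to 0.0513 CPM, the counts of a gene for each 1000000 counts of its library. Plxnb1 measured 61.8, 45.4, and 96.4 CPM in the WT cultures and 13.1, 16.6, and 18.6 CPM in the Plxnb1-/- cultures, which is −2.08 on the log2 scale (adjusted p = 0.0449 from edgeR) and lower in 3 of 3 cultures, the direction the labels give. WT replicate 2 stood apart from the other libraries on the first principal component, with a score of −47.4 where the other WT cultures had −3.58 and −7.52 and the Plxnb1-/- cultures 10.3 to 34.0. It was the lowest of the 6 cultures for 8 of the 10 members, and the main results that rest on it are given with and without it. All 10 SC markers were detected, with a summed level of 2541 to 3034 CPM in WT and 3043 to 3463 CPM in Plxnb1-/- cultures. Markers of fibroblasts summed to 6064 to 7976 CPM in WT and 5740 to 5994 CPM in Plxnb1-/- cultures, and 8 of the 9 reached 1 CPM. In bulk libraries, fewer cells of a type and less RNA per cell cannot be told apart.

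The question was whether the genes of cell-to-cell adhesion differed between the genotypes. By edgeR's quasi-likelihood test, no member passed (0 of 10 with an adjusted p under 0.05 and a log2 fold change beyond 0.25 in size), where 0.0358% of all 22318 tested genes did. Cdh11, Cdh19, and Ctnna2 had an unadjusted p below 0.05 (3 of 10, beside 13.7% of all genes). DESeq2, the tool the study names, called 2 of the 10 with the same cutoffs, Cdh11 as lower and Ctnna2 as higher in Plxnb1-/- SCs, beside 1.50% of all genes. Fitted without the filter on low counts, edgeR called 1 of the 10, Cdh11 (adjusted p = 0.0463), beside 0.949% of 31191 genes. The cultures of the genotypes did not overlap for 3 members: Cdh19 and Ctnna2 lay above (2 of 10, beside 9.30% of all genes) and Cdh11 lay below (1 of 10, beside 10.4%). The members were chosen with earlier results of these data known, so these shares do not test the group.

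**Figure D1:**
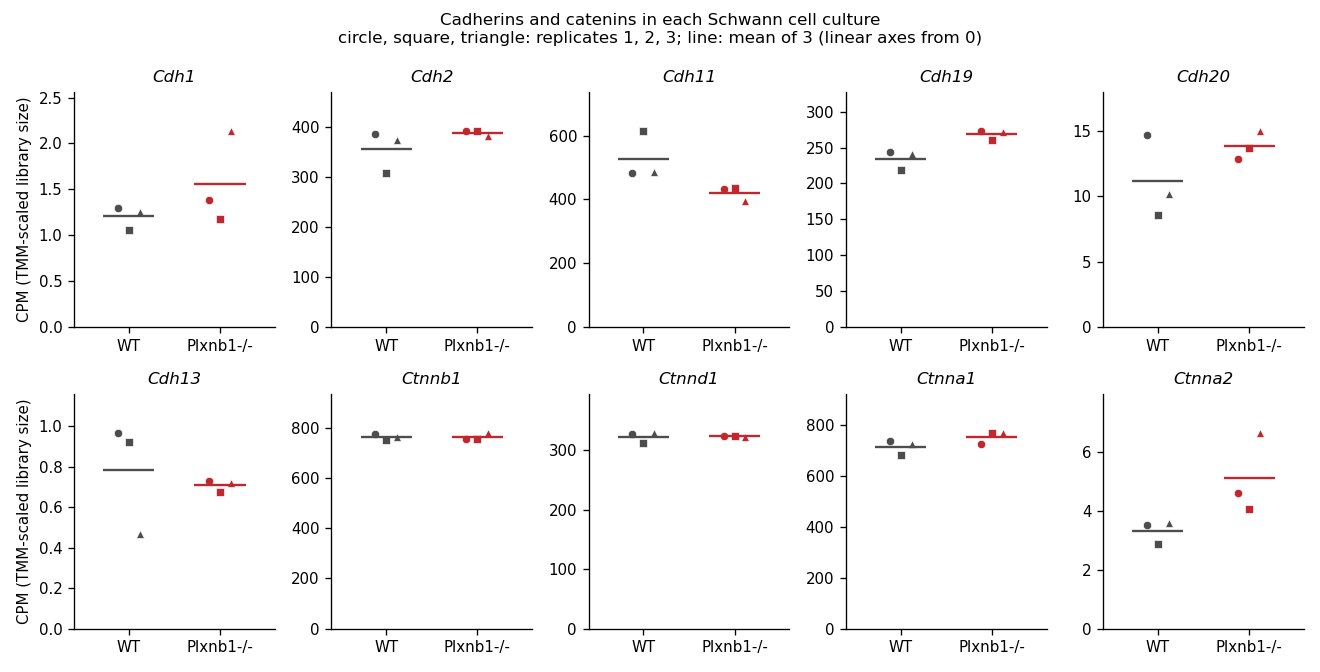
Level of each cadherin and catenin in CPM (vertical axes, linear from 0) in the 3 WT and 3 Plxnb1-/- cultures, with symbols for the replicates and a line at the mean of 3. Cdh11 lies lower in every Plxnb1-/- culture (395 to 435 CPM) than in every WT culture (482 to 614 CPM), Cdh19 and Ctnna2 lie higher, and the other 7 genes overlap.

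Among the classical cadherins of type I, Cdh2 encodes N-cadherin. It measured 384, 307, and 374 CPM in the WT cultures and 390, 391, and 381 CPM in the Plxnb1-/- cultures. The groups overlapped, WT replicate 2 was the low one, and the remaining 5 cultures lay within 374 to 391 CPM. The log2 fold change was 0.13 (95% interval −0.05 to 0.30, adjusted p = 0.506 from edgeR), and without WT replicate 2 it was 0.03 (adjusted p = 0.841 from edgeR). In percent of the WT level, the interval of the full fit runs from −3.36% to 23.1%.

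Cdh1 encodes E-cadherin, which is best known from epithelia. It was close to 1 CPM, at 1.30, 1.06, and 1.26 CPM in WT and 1.38, 1.17, and 2.14 CPM in Plxnb1-/- cultures, from 62 to 148 reads a library. Plxnb1-/- replicate 2 lay within the WT range, replicate 1 just above it, and replicate 3 well above it. The log2 fold change of 0.37 had a 95% interval from −0.15 to 0.89 (adjusted p = 0.509 from edgeR) and was 0.08 without Plxnb1-/- replicate 3. Of 7 epithelial marker genes, Krt19 was the one that reached 1 CPM (3.49 to 5.25 CPM), and Krt8, Krt5, and Krt14 had 0 reads in at least 1 library each.

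The type II cadherins among the members were Cdh11, Cdh19, and Cdh20. Cdh11, the OB-cadherin found in many mesenchymal cells, had the highest CPM of these. Its level was 482, 614, and 485 CPM in the WT cultures and 434, 435, and 395 CPM in the Plxnb1-/- cultures. Every Plxnb1-/- culture lay below every WT culture, and WT replicate 2 was far above the other WT cultures. On the log2 scale the difference was −0.32 (standard error 0.09, 95% interval −0.53 to −0.12), which is 0.799 times the WT level. It had an adjusted p = 0.273 from edgeR and an adjusted p = 0.0346 from DESeq2.

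The call on Cdh11 depended on which cultures were in the fit. Without WT replicate 2, the log2 fold change was −0.20 (adjusted p = 0.325 from edgeR), and DESeq2 gave −0.20 with an adjusted p = 0.0456, a difference too small for a call. DESeq2 also lost the call without Plxnb1-/- replicate 1 (adjusted p = 0.0889), replicate 2 (adjusted p = 0.159), or replicate 3 (adjusted p = 0.478), and kept it without WT replicate 1 or 3. The direction was negative in each of these fits. Over all 22318 genes, DESeq2 called 335 in the full fit. With 1 culture left out, it called 46 (without Plxnb1-/- replicate 3) to 938 (without WT replicate 1).

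Fibroblast markers moved beside Cdh11. Of the 9 markers, 8 had a negative log2 fold change, with a median of −0.23, none was called by edgeR or DESeq2, and none was at 0 in any library. Their sum was highest in WT replicate 2 (7976 CPM), as was Cdh11, and the WT and Plxnb1-/- sums did not overlap. Most of that sum was Col3a1, at 4727, 6130, and 5039 CPM in WT and 4339, 4625, and 4562 CPM in Plxnb1-/- cultures. Between the genotypes, 6 of the 9 overlapped. Pdgfra, Col3a1, and Thy1 were lower in every Plxnb1-/- culture than in every WT culture (3 of 9, beside 10.4% of all genes). Lum was the positive one (0.08), and Dcn stood at −0.01. Thy1, the surface antigen used for the depletion, measured 429, 652, and 490 CPM in WT and 410, 409, and 384 CPM in Plxnb1-/- cultures. Of the mural cell markers, whose sum was 498 to 607 CPM in WT and 463 to 505 CPM in Plxnb1-/- cultures, Cspg4 alone was lower (log2 fold change −0.29, adjusted p = 0.308 from edgeR) and the other 5 had positive values. The part of these cells in the Cdh11 values was not tested.

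Cdh19, the type II cadherin of the SC lineage, measured 244, 219, and 241 CPM in WT and 273, 260, and 272 CPM in Plxnb1-/- cultures. Every Plxnb1-/- culture lay above every WT culture, and WT replicate 2 was again the lowest. This was a log2 fold change of 0.20 (standard error 0.05, 95% interval 0.08 to 0.31), or 1.15 times the WT level. It had an adjusted p = 0.273 from edgeR and an adjusted p = 0.0548 from DESeq2. Without WT replicate 2 it was 0.15 (adjusted p = 0.337 from edgeR). SC markers had the same sign, with positive values in 9 of 10 and a median log2 fold change of 0.19, and none of them was called by either tool. Foxd3 was the SC marker with a negative value (−0.02). The part of a differing share of SCs in the Cdh19 values was not tested.

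Cdh20 is a less abundant type II cadherin, and it had the widest spread of the members above 10 CPM. It measured 14.7, 8.59, and 10.2 CPM in WT and 12.9, 13.7, and 15.0 CPM in Plxnb1-/- cultures. WT replicate 1 lay among the Plxnb1-/- cultures and the other WT cultures lay below them, with a coefficient of variation of 28.4% in WT and 7.69% in Plxnb1-/- cultures. Its log2 fold change was 0.31 (95% interval −0.07 to 0.69, adjusted p = 0.448 from edgeR). It ranged from 0.16 without WT replicate 2 to 0.56 without WT replicate 1, and in the latter fit DESeq2 called it (adjusted p = 3.71e-04).

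Cdh13 encodes T-cadherin, which is held in the membrane by a lipid anchor and has no tail that binds catenins. It was the scarcest member, at 0.969, 0.923, and 0.466 CPM in WT and 0.728, 0.676, and 0.721 CPM in Plxnb1-/- cultures. These values rest on 33 to 62 reads a library, and the Plxnb1-/- cultures lay inside the WT range. A log2 fold change of −0.14 had a 95% interval from −0.75 to 0.48 (adjusted p = 0.863 from edgeR), so values of either sign within that interval are not excluded.

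**Figure D2:**
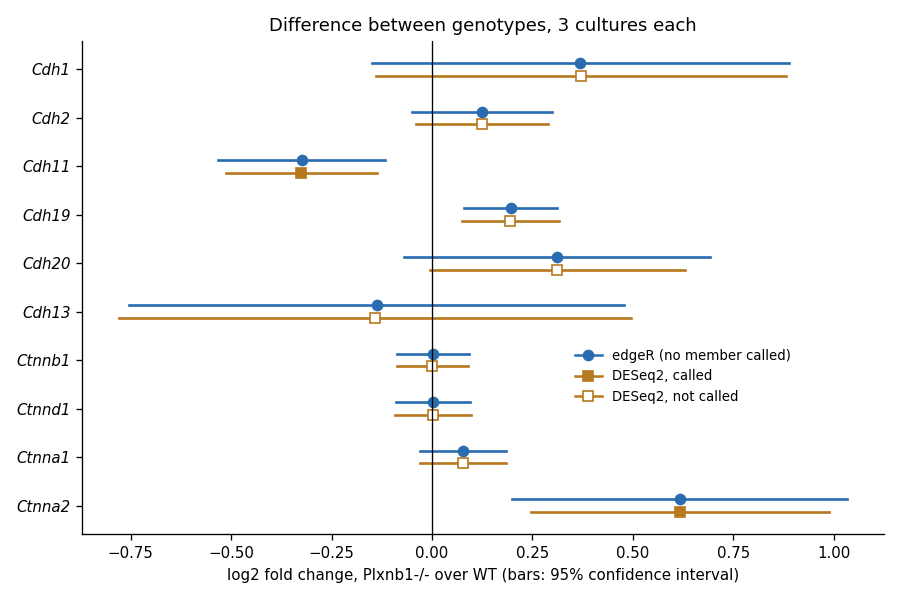
Log2 fold change of each member, Plxnb1-/- over WT (horizontal axis), with its 95% confidence interval from edgeR (circles) and DESeq2 (squares, filled where called), 3 cultures a genotype. The intervals of Cdh11, Cdh19, and Ctnna2 lie clear of 0 in both tools, those of Ctnnb1 and Ctnnd1 are narrow around 0, and those of Cdh1 and Cdh13 are wide.

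The catenins that all classical cadherins use were close to equal between the genotypes. Ctnnb1, which encodes β-catenin, measured 773, 751, and 761 CPM in WT and 754, 755, and 780 CPM in Plxnb1-/- cultures. The groups overlapped, and the spread within each was small, with a coefficient of variation of 1.42% and 1.93%. The log2 fold change was 0.00, and its 95% interval from −0.09 to 0.09 (adjusted p = 0.993 from edgeR) covers differences from −5.93% to 6.53%. Ctnnb1 lies at chr9:120929216-120960507 (GRCm38, plus strand), 11.8 Mb from Plxnb1 on the same chromosome.

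Ctnnd1 encodes p120-catenin, which holds cadherins at the cell surface. It measured 327, 312, and 330 CPM in WT and 324, 324, and 322 CPM in Plxnb1-/- cultures. Its log2 fold change was 0.00, with a 95% interval from −0.09 to 0.09 (adjusted p = 0.988 from edgeR). The Plxnb1-/- cultures lay inside the WT range and differed among themselves by a coefficient of variation of only 0.393%.

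The counts of these catenins could not be separated from those of overlapping genes. Gm28635, a gene model on the same strand, shares 4482 of the 7319 exon bases of Ctnnd1 (61.2%), and its count was 83.8% to 85.5% of the Ctnnd1 count in the 6 libraries. Ulk4, on the opposite strand, shares 759 of the 5192 exon bases of Ctnnb1 (14.6%), and its count was 11.1% to 11.6% of that of Ctnnb1. The library kit keeps the strand, but whether the counting used it is not given in the sources used here. Gm28635 (log2 fold change 0.01, adjusted p = 0.909 from edgeR) and Ulk4 (0.02, adjusted p = 0.844 from edgeR) also had small values, beside 0.00 for each partner.

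Ctnna1, the α-catenin of most tissues, measured 736, 682, and 723 CPM in WT and 724, 767, and 768 CPM in Plxnb1-/- cultures. The groups overlapped through Plxnb1-/- replicate 1, which lay between WT replicates 3 and 1. Between the genotypes the log2 fold change was 0.08 (95% interval −0.03 to 0.18, adjusted p = 0.499 from edgeR), which covers differences from −1.99% to 13.6%. Lrrtm2, on the opposite strand within Ctnna1, was called higher by DESeq2 (log2 fold change 0.33, adjusted p = 0.00452 from DESeq2) and was not called by edgeR. It shares 95 of the 6425 exon bases of Ctnna1 (1.48%).

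Ctnna2, the α-catenin best known from neurons, was far scarcer. It measured 3.53, 2.87, and 3.59 CPM in WT and 4.63, 4.07, and 6.66 CPM in Plxnb1-/- cultures, from 168 to 462 reads a library. Every Plxnb1-/- culture lay above every WT culture, and Plxnb1-/- replicate 3 was the highest. This was a log2 fold change of 0.62 (standard error 0.18, 95% interval 0.20 to 1.03), or 1.53 times the WT level. It had an adjusted p = 0.284 from edgeR and an adjusted p = 0.0453 from DESeq2.

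Like the number of calls over all genes (46 to 938), the DESeq2 call on Ctnna2 depended on which cultures were in the fit. It was kept without WT replicate 1 (adjusted p = 0.0450) or Plxnb1-/- replicate 2 (adjusted p = 0.0329). It was lost without WT replicate 2 (adjusted p = 0.290), WT replicate 3 (adjusted p = 0.112), Plxnb1-/- replicate 1 (adjusted p = 0.0948), or Plxnb1-/- replicate 3 (adjusted p = 0.605), and in that last fit the log2 fold change was 0.38. All 7 neuron markers had positive log2 fold changes (median 0.37), none was called, and their sum was 148 to 163 CPM in WT and 164 to 187 CPM in Plxnb1-/- cultures, with the highest sum in Plxnb1-/- replicate 3. Of that sum, 127 to 153 CPM was Tubb3, and Snap25 was at 0.563 to 1.24 CPM. The part of neuronal RNA in the Ctnna2 values was not tested. Ctnna2 lies at chr6:76881637-77979699 (GRCm38, minus strand) and shares no exon base with Lrrtm1, which sits inside it on the opposite strand.

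To compare levels between genes, each CPM was divided by the length of the gene's exons in kilobases. On that scale, the order in WT cultures was Ctnnb1 (147 ± 2.09, SD, n = 3), Ctnna1 (111 ± 4.32), Cdh11 (59.2 ± 8.49), Cdh19 (54.8 ± 3.21), Ctnnd1 (44.1 ± 1.32), and Cdh2 (44.0 ± 5.18), all in CPM per kilobase. Cdh20 followed at 2.78 ± 0.791, Ctnna2 at 0.479 ± 0.0574, Cdh1 at 0.263 ± 0.0278, and Cdh13 at 0.0700 ± 0.0247 CPM per kilobase. Neighbours in this order had separate ranges except Cdh11 and Cdh19, and Ctnnd1 and Cdh2. Thus a group of 3 abundant cadherins and 3 abundant catenins stood well above a group of 4 scarce members.

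In Plxnb1-/- cultures the first places were the same, with Ctnnb1 at 147 ± 2.84 and Ctnna1 at 117 ± 3.92 CPM per kilobase (SD, n = 3). Cdh19 came next (62.7 ± 1.65), ahead of Cdh2 (48.0 ± 0.724) and Cdh11 (47.3 ± 2.56), and Cdh11 overlapped with Cdh2 where in WT it had overlapped with Cdh19. Ctnnd1 was at 44.2 ± 0.174, Cdh20 at 3.45 ± 0.266, Ctnna2 at 0.737 ± 0.197, Cdh1 at 0.342 ± 0.111, and Cdh13 at 0.0631 ± 0.00253 CPM per kilobase. The order within the 3 abundant cadherins depended on the length used. With the longest annotated transcript in place of all exons, the means over the 6 cultures were 84.0 for Cdh11, 76.7 for Cdh2, and 64.2 for Cdh19, against 53.2, 46.0, and 58.7 CPM per kilobase with all exons.

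The deposited FPKM values order the members in another way. Dividing counts by FPKM gives the length behind them, which equals the gene's span with its introns for all 10 members and for 99.1% of 14948 genes compared. Ctnna2 spans 1098063 bases for 6947 bases of exon and Cdh13 spans 1041189 bases for 11233, whereas Ctnnb1 spans 31292 for 5192. By mean FPKM, Ctnnd1 (6.38) therefore stood above Ctnna1 (5.40), and Cdh1 (0.0207) above Ctnna2 (0.00385). Within a gene the comparison of genotypes keeps its direction, and the FPKM of Cdh11 was 3.42 ± 0.465 in WT and 2.75 ± 0.161 in Plxnb1-/- cultures (SD, n = 3). On log2(FPKM + 0.1), this was a difference of −0.29, and limma called no member on that scale. The mean FPKM of Cdh20 (0.0551), Cdh1, Ctnna2, and Cdh13 (0.000717) lay below the added 0.1, which shrinks their differences. For Ctnna2 the log2 difference was 0.02 on that scale and 0.62 from edgeR, so limma says little about these genes.

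**Figure D3:**
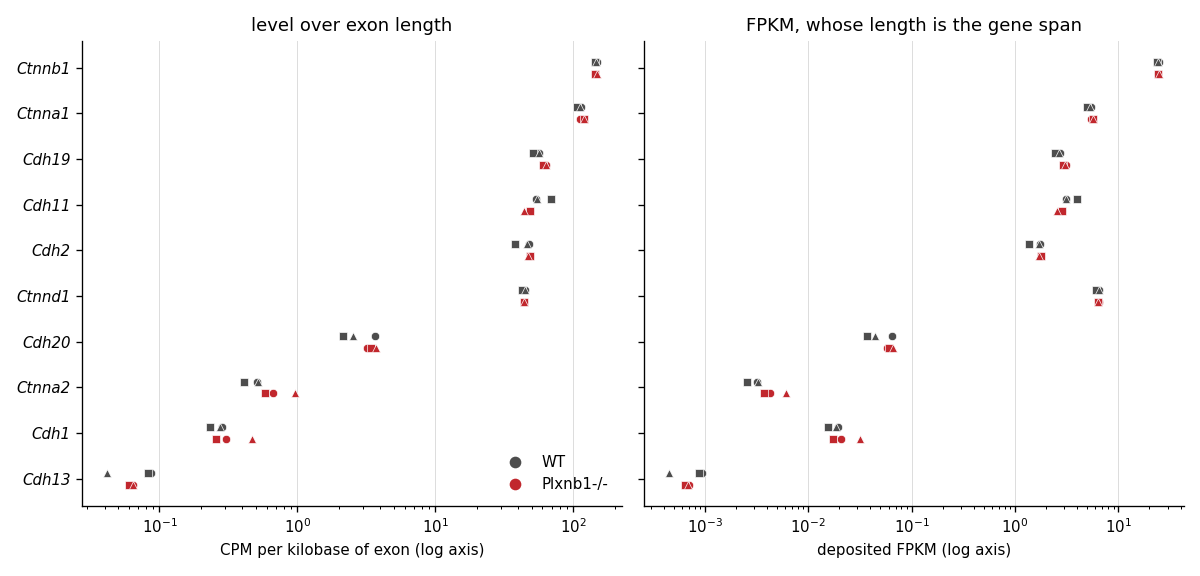
Level of the 10 members in each culture (symbols for replicates, grey for WT and red for Plxnb1-/-) as CPM per kilobase of exon on the left and as deposited FPKM on the right, both on log axes and with genes in the order of the left panel. Ctnna2 and Cdh1 change places on the right, and Ctnnd1 moves above the cadherins and Ctnna1.

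The mix of the 6 member cadherins within a culture needs no scaling between libraries. The share of each in their summed level per kilobase was therefore compared. The sum leaves out other cadherins. Of these, Cdh6 (14.7), Cdh5 (14.0), and Cdh10 (4.12 CPM per kilobase, means of the 6 cultures) exceeded Cdh20 (3.12). Cdh11 held 33.3%, 43.0%, and 34.0% of the sum in WT and 29.6%, 30.2%, and 27.8% in Plxnb1-/- cultures, a mean difference of −7.55 percentage points. Cdh19 held 35.0%, 31.8%, and 35.2% in WT and 38.8%, 37.6%, and 39.9% in Plxnb1-/- cultures, a mean difference of 4.76 points. Cdh2 held 29.3%, 23.7%, and 29.0% in WT and 29.4%, 30.0%, and 29.6% in Plxnb1-/- cultures, a mean difference of 2.34 points.

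None of these 3 shares overlapped between the genotypes. Each had p = 0.1 in an exact two-sided permutation test, which is the smallest p that 3 against 3 cultures can give, so the design cannot reach 0.05. Adjusted over the 6 shares it was 0.2, and the shares are not independent because they add up to 100%. Without WT replicate 2, the difference for Cdh11 was −4.45 points, for Cdh19 3.66 points, and for Cdh2 0.533 points. The shares of Cdh20, Cdh1, and Cdh13 overlapped.

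The summed level of the 6 cadherins was 163, 161, and 160 CPM per kilobase in WT and 164, 162, and 159 CPM per kilobase in Plxnb1-/- cultures (p = 0.7, exact two-sided permutation test). The genotypes overlapped in this sum, with a lowest value of 159 and a highest of 164. The 4 catenins summed to 309, 294, and 305 CPM per kilobase in WT and 303, 310, and 315 CPM per kilobase in Plxnb1-/- cultures (p = 0.4, exact two-sided permutation test). The ratio of Cdh11 to Cdh19 was 0.950, 1.35, and 0.968 in WT and 0.764, 0.803, and 0.698 in Plxnb1-/- cultures, with no overlap (p = 0.1, exact two-sided permutation test). The ratio of Cdh11 to Cdh2 was 1.14, 1.81, and 1.17 in WT and 1.01, 1.01, and 0.940 in Plxnb1-/- cultures, again with no overlap (p = 0.1, exact two-sided permutation test). Over these 4 sums and ratios, the adjusted p of both ratios was 0.2. Without WT replicate 2, the mean ratio in WT was 0.959 for Cdh11 to Cdh19 and 1.16 for Cdh11 to Cdh2, beside 0.755 and 0.984 in Plxnb1-/- cultures.

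**Figure D4:**
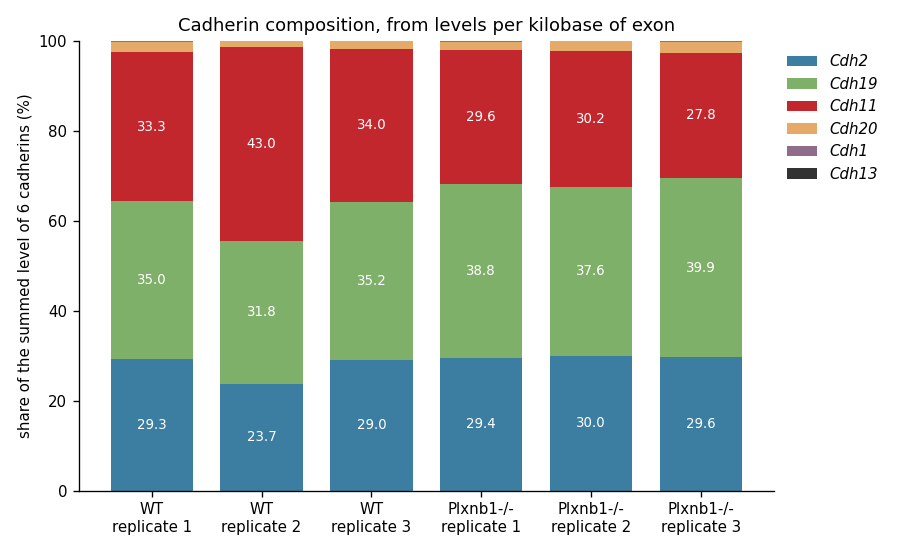
Share of each cadherin in the summed level per kilobase of exon of the 6 cadherins (vertical axis, percent), 1 bar a culture. The red part, Cdh11, takes 33.3% to 43.0% in the WT cultures and 27.8% to 30.2% in the Plxnb1-/- cultures, and WT replicate 2 has the largest Cdh11 part.

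The members lie on 6 chromosomes. Cdh11 (chr8:102632095-102785642, minus strand), Cdh1, and Cdh13 are on chromosome 8 of GRCm38, with 3.82 Mb between Cdh11 and Cdh1 and 11.6 Mb between Cdh1 and Cdh13. Cdh19 (chr1:110888326-110977584, minus strand) lies 5.89 Mb from Cdh20, and both had positive log2 fold changes. Cdh2 and Ctnna1 are on chromosome 18 with 18.3 Mb between them. On chromosome 8, the value was 0.37 for Cdh1 and −0.32 for Cdh11 on the log2 scale. The confidence interval of Cdh1 from edgeR ran from −0.15 to 0.89, so the sign of its value was not settled. Whether position bears on the values of the members was not tested.

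The wider machinery was described through 9 lists with 87 genes, of which 79 were tested. By edgeR, 0 of the 79 were called (beside 0.0358% of all genes), with 21 at an unadjusted p below 0.05 (26.6%, beside 13.7% of all genes), and DESeq2 called 4, 2 in each direction (5.06%, beside 1.50% of all genes). The lists were chosen with earlier results of these data known, so these shares do not test the lists. The genes called by DESeq2 were the cadherin Cdh10 and the actin crosslinker Actn1 as lower, and the α-catenin relative Ctnnal1 and the junction protein Plekha7 as higher. DESeq2 called the same 4 genes without WT replicate 2, 14 genes without WT replicate 1, Cdh10 alone without Plxnb1-/- replicate 2, and 0 without Plxnb1-/- replicate 3. Its calls over all 22318 genes moved too, from 335 in the full fit. They numbered 160 without WT replicate 2, 938 without WT replicate 1, 121 without Plxnb1-/- replicate 2, and 46 without Plxnb1-/- replicate 3. Over all tested genes the median log2 fold change was 0.00.

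Of the other 13 classical cadherins, 9 were tested, with 3 positive and 6 negative values and a median log2 fold change of −0.13. Cdh10, a type II cadherin of the nervous system, measured 46.7, 49.1, and 45.2 CPM in WT and 39.7, 35.4, and 32.3 CPM in Plxnb1-/- cultures. The groups did not overlap, and the difference was −0.39 on the log2 scale (standard error 0.07), with an adjusted p = 0.228 from edgeR and 0.00126 from DESeq2. It was −0.36 without WT replicate 2. Cdh6, a type II cadherin and the most abundant of this list per kilobase, measured 139, 107, and 130 CPM in WT and 140, 140, and 141 CPM in Plxnb1-/- cultures (log2 fold change 0.16, adjusted p = 0.422 from edgeR, and 0.06 without WT replicate 2). The lowest and highest values at a mean of 1 CPM or more were those of Cdh3, or P-cadherin (−0.56, adjusted p = 0.526 from edgeR), and Cdh4, or R-cadherin (0.18, adjusted p = 0.729 from edgeR).

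Cdh5, the VE-cadherin of endothelial cells, was at 51.65, 67.98, and 60.12 CPM in WT and 60.7, 56.0, and 56.3 CPM in Plxnb1-/- cultures (log2 fold change −0.06, adjusted p = 0.825 from edgeR). It made up most of the summed level of the 8 endothelial markers, which was 65.6 to 86.2 CPM. Pecam1, another defining endothelial gene, was at 1.08 to 3.72 CPM, and Cldn5 at 0.0256 to 0.376 CPM.

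The list of other catenins and Ctnnbip1 held 7 genes, all tested, with 5 positive and 2 negative values (median 0.12). Ctnnbip1, which is not itself a catenin, had a negative value (−0.06). Ctnnal1, or α-catulin, measured 136, 96.5, and 123 CPM in WT and 151, 151, and 165 CPM in Plxnb1-/- cultures, without overlap. The difference was 0.39 on the log2 scale (standard error 0.11), with an adjusted p = 0.273 from edgeR and 0.0203 from DESeq2. WT replicate 2 was the lowest culture, and without it the difference was 0.27 (adjusted p = 0.271 from edgeR and 0.00987 from DESeq2). Jup, or plakoglobin, which can take the place of β-catenin on a cadherin tail, measured 197, 266, and 227 CPM in WT and 195, 190, and 170 CPM in Plxnb1-/- cultures. Its log2 fold change was −0.31 (adjusted p = 0.290 from edgeR and 0.0685 from DESeq2), with WT replicate 2 the highest culture, as for Cdh11, and was −0.19 without that culture (adjusted p = 0.511 from edgeR).

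The 14 genes that link junctions to actin or belong to the nectins had 7 positive and 7 negative values (median −0.01). Actn1, an α-actinin that crosslinks actin filaments, measured 551, 728, and 574 CPM in WT and 486, 471, and 427 CPM in Plxnb1-/- cultures. No Plxnb1-/- culture reached the WT range, and the difference was −0.42 on the log2 scale (standard error 0.10), with an adjusted p = 0.266 from edgeR and 0.00568 from DESeq2. Without WT replicate 2, the highest culture, it was −0.28 (adjusted p = 0.262 from edgeR and 0.00243 from DESeq2). Plekha7, which binds p120-catenin at junctions, measured 51.6, 44.1, and 51.6 CPM in WT and 56.2, 62.8, and 65.3 CPM in Plxnb1-/- cultures. Its groups did not overlap either, and the difference was 0.32 on the log2 scale (standard error 0.08), with an adjusted p = 0.266 from edgeR and 0.0147 from DESeq2. It was 0.26 without WT replicate 2 (adjusted p = 0.0493 from DESeq2). Actn4, the most abundant of the list, stood at 0.03 (adjusted p = 0.794 from edgeR).

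Genes that act on β-catenin or on cadherins after synthesis were not called in either tool. Of the 6 genes for cleavage of cadherins, 5 had positive values (median 0.04), and the highest value and level were those of Adam10, the protease that sheds cadherin ectodomains (0.19, adjusted p = 0.348 from edgeR). The 9 genes of the complex that marks β-catenin for degradation had 5 positive and 4 negative values (median 0.02), and all 9 overlapped between the genotypes. They ran from Btrc (−0.08, adjusted p = 0.653 from edgeR) to Axin2 (0.33, adjusted p = 0.343 from edgeR), with Fbxw11, the most abundant per kilobase, at 0.02 (adjusted p = 0.859 from edgeR).

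The nuclear side of β-catenin likewise held no called gene. Of the 8 TCF and LEF factors and their co-activators, 4 had positive and 4 negative values (median 0.01), from Tcf7l2 (−0.14, adjusted p = 0.494 from edgeR) to Tcf7 (0.26, adjusted p = 0.301 from edgeR), and Pygo2 was the most abundant (0.05, adjusted p = 0.674 from edgeR). Of 14 Wnt target genes, 11 were tested, with 9 positive and 2 negative values (median 0.21). Among these, Lgr5 had the highest value (0.47, adjusted p = 0.355 from edgeR), Myc the lowest (−0.14, adjusted p = 0.301 from edgeR), and the cyclin gene Ccnd1 the highest level (0.21, adjusted p = 0.385 from edgeR). Axin2, Lef1, and Tcf7 are also in the preceding lists. The 14 Wnt target genes summed to 1090, 878, and 1047 CPM in WT and 1088, 1142, and 1185 CPM in Plxnb1-/- cultures. WT replicate 2 had the lowest sum, and WT replicate 1 lay within the Plxnb1-/- range.

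The large and divergent cadherins were also without a call. All 8 tested genes of the Fat, Dachsous, and Celsr families, which act in planar polarity, had positive values (median 0.27). The lowest was Fat1 (0.01, adjusted p = 0.936 from edgeR), which was also the most abundant, and the highest at 1 CPM or more was Celsr1 (0.40, adjusted p = 0.355 from edgeR). The 9 genes of this list summed to 779, 744, and 807 CPM in WT and 794, 812, and 875 CPM in Plxnb1-/- cultures. The genotypes overlapped in that sum, and WT replicate 2 was the lowest culture. The 10 delta protocadherins had 7 positive and 3 negative values (median 0.10). They ran from Pcdh19 (−0.25, adjusted p = 0.291 from edgeR) to Pcdh8 (0.34, adjusted p = 0.538 from edgeR), and Pcdh1, the most abundant, stood at 0.21 (adjusted p = 0.407 from edgeR).

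**Figure D5:**
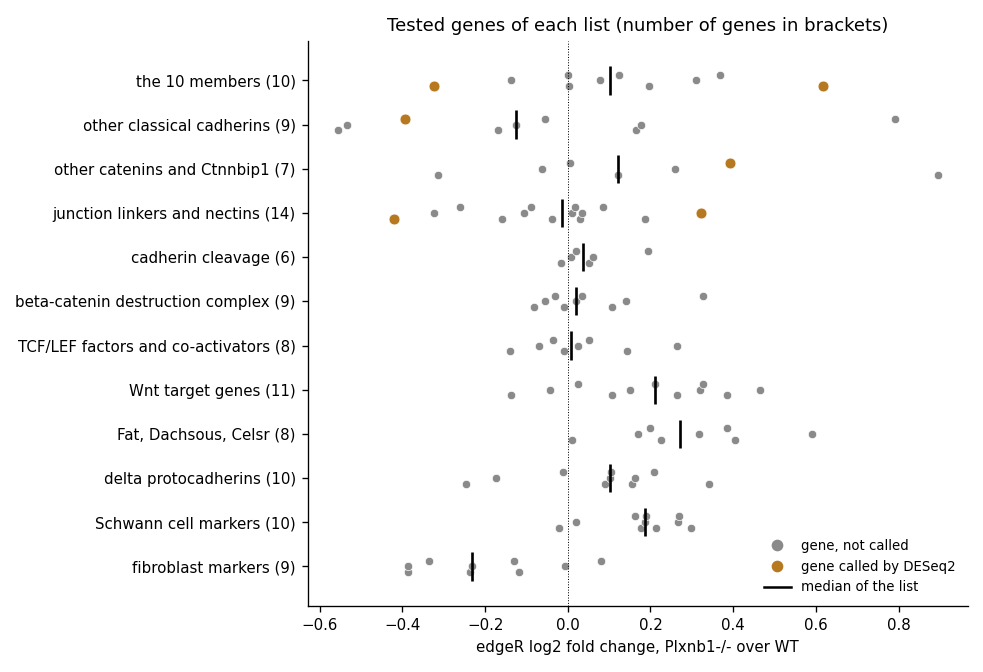
Log2 fold change of each tested gene, Plxnb1-/- over WT from edgeR (horizontal axis), by list, with the number of genes in brackets, the median as a black line, and genes called by DESeq2 in brown. The 10 members have a median of 0.10 and 2 called genes, 7 of the 9 pathway lists have medians between −0.13 and 0.12, and the medians of the SC and fibroblast markers are 0.19 and −0.23.

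The 10 members themselves had 8 positive and 2 negative values, with a median log2 fold change of 0.10. The spread between WT cultures exceeded that between Plxnb1-/- cultures in 7 of the 10, with Cdh1, Ctnna2, and Ctnnb1 as the exceptions. Lists of other cell types added no call. Melanocyte markers summed to 9.72 to 11.3 CPM and epithelial markers to 3.70 to 5.64 CPM over the 6 cultures. Macrophage markers, which were positive in 7 of 7, summed to 34.9 to 40.0 CPM in WT and 40.3 to 47.3 CPM in Plxnb1-/- cultures.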

How the data were processed

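Bulk poly(A) RNA-seq libraries, 3 WT and 3 Plxnb1-/-, were grouped by the genotype in the sample titles. The authors trimmed reads with Trim Galore 0.6.5, aligned them to mm10 with Bowtie2 2.4.1, removed duplicates with SAMtools 1.10, and deposited exonic counts per gene from featureCounts without normalization. A spliced gene's reads across exon junctions may be lost with an aligner that does not split reads, to an extent not measured here. The authors also deposited FPKM values made from these counts.

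Counts were fitted for genotype with edgeR 4.0.16 (quasi-likelihood, TMM factors) in R 4.3.3, for the 22318 genes that had 2 or more counts in 5 or more of the 6 libraries. The p-values were adjusted by Benjamini-Hochberg over all of them, and a call needs an adjusted p under 0.05 with a log2 fold change beyond 0.25 in size. DESeq2 1.42.0 was run on the same genes, where 7358 have no adjusted p, among them Cdh13. CPM use TMM-scaled totals, and exon lengths come from GENCODE vM21 on GRCm38, which matched 55141 of 55401 genes. Shares and ratios were tested with exact permutation tests (SciPy 1.17.1). FPKM was tested with limma 3.58.1 on log2(FPKM + 0.1). The code was tested on simulated data.

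Members and lists were chosen with earlier results of these data known. Named besides the members were some cell type markers, not every one that reached 1 CPM. From each pathway list, each gene called by edgeR or DESeq2 was named. The genes with the lowest and highest log2 fold change at a mean of at least 1 CPM, and the most abundant gene, were named too. A gene that this rule names is not reported here. The genes that overlap a member were added after the values were seen. Counting floors and intervals cover counting error or the spread between libraries only.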

Additional observations from a re-analysis of the deposited data

How the results depend on the processing

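No member was called by edgeR with RLE or upper-quartile factors, at least 10 counts in 3 libraries, no cutoff on the fold change, an adjusted p below 0.1, limma on FPKM, or any 1 culture left out (0 to 0 in the 6 fits), nor was any gene of the 9 lists when 1 culture was left out (0 to 0). For Cdh20, Cdh1, Ctnna2, and Cdh13, limma on log2(FPKM + 0.1) says little, because their FPKM lay below the added 0.1. DESeq2 called 2 members and 4 list genes, and edgeR without the filter called 1 and 4. With 1 culture left out, a choice made after seeing the data, DESeq2 called 0 to 3 members, 0 without WT replicate 2, Plxnb1-/- replicate 1, or Plxnb1-/- replicate 3, and 0 to 14 list genes (0 without Plxnb1-/- replicate 3, 1 without Plxnb1-/- replicate 2, and 14 without WT replicate 1). Over all 22318 genes it called 335 in the full fit. The left-out fits called 938, 160, and 220 genes without WT replicates 1, 2, and 3. They called 286, 121, and 46 without Plxnb1-/- replicates 1, 2, and 3. The direction of each member held in every fit except for Cdh13, which ranged from −0.415 to 0.0523 with 1 culture left out (positive without WT replicate 1, where its share differed by 0.000427 points, in a range from −0.0131), and for values next to 0. Ctnnb1 was at −0.00760 with upper-quartile factors, −0.00128 with the stricter filter, and −0.0140 (without Plxnb1-/- replicate 3) to 0.0145 with 1 culture left out. Ctnnd1 was at −0.00701 and −0.000635 under the same settings and at −0.0186 (without WT replicate 2) to 0.0176 with 1 culture left out.

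Plxnb1 kept its direction in every fit. It was not called by limma on log2(FPKM + 0.1), at −1.86 with or without the filter, on log2(FPKM + 0.01), at −1.99, or by edgeR with the stricter filter, at −2.08 (adjusted p = 0.0648), and ranged from −2.30 to −1.74 with 1 culture left out. In 4 of those 6 fits edgeR did not call it, without WT replicate 1 (adjusted p = 0.0812) or Plxnb1-/- replicate 1 (0.246), 2 (0.254), or 3 (0.1197). Leaving out 1 culture moved the share of Cdh11 between −9.30 and −4.45 points, of Cdh19 between 3.66 and 5.35, and of Cdh2 between 0.533 and 3.30. With the replicate number as a block, 0 members, 0 list genes, and 5 genes in all were called, beside 8 without it. Deviations of same-numbered cultures correlated at r = −0.022, 0.0078, and 0.065. With 3 cultures a genotype, this cannot decide whether the numbers pair them. The values of Cdh13 rest on 33 to 62 reads a library and those of Cdh1 on 62 to 148, and with 1 culture left out Cdh1 ranged from 0.08 to 0.54 and Ctnna2 from 0.38 to 0.76.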
